A study of Mus musculus with 8 samples.

Results

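The HoxC cluster is the row of *Hox* genes on mouse chromosome 15, and the array carried a probe for each of its 9 genes, *Hoxc4*, *Hoxc5*, *Hoxc6*, *Hoxc8*, *Hoxc9*, *Hoxc10*, *Hoxc11*, *Hoxc12* and *Hoxc13*. They were chosen by the gene name that the scanner output gives to each non-control probe, which left 9 probes of 55681 and 9 gene names of 36406. Each gene was read by 1 probe in 1 spot, so no second probe of the same gene was there to set beside it. RNA came from E14Tg2A.4 cells, a line of mouse embryonic stem (ES) cells. Untreated cells, which were kept self-renewing, gave 4 arrays, and cells exposed to all-trans retinoic acid (RA) for 72 h gave the other 4. The study describes the replicates as biological. Per its methods, RA was given in medium without leukemia inhibitory factor, the cytokine that keeps ES cells self-renewing, so the effects of RA and of its withdrawal cannot be told apart. All cells were of 1 line with no transgene named in the labels.

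*Hox* genes encode homeodomain transcription factors that give cells their position along the head-to-tail axis of the embryo. In mammals they lie in 4 clusters, and genes of the same number in different clusters are paralogs. Within a cluster the low-numbered, anterior genes are as a rule switched on earlier and further towards the head than the high-numbered, posterior ones, a property called collinearity. RA is a natural inducer of the anterior side of the clusters, while in ES cells the clusters are classic targets of Polycomb repression. The comparison of untreated and RA-treated cells asks which genes change when ES cells leave self-renewal, and for the HoxC genes it can be read along the chromosome.

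After RA the genes on the *Hoxc4* side rose and those on the *Hoxc13* side did not. *Hoxc4*, *Hoxc5*, *Hoxc6*, *Hoxc8* and *Hoxc9* were called higher, *Hoxc13* was called lower, and *Hoxc10*, *Hoxc11* and *Hoxc12* passed the test in neither direction. A probe was called when its adjusted p in limma was under 0.05 and its change exceeded 1.5-fold. By the same rule 12.9% of all probes were called higher and 21.6% lower, shares that were 11.3% and 11.9% with another background correction and scaling (normexp and quantile). The 5 called higher and the 1 called lower were also the 6 members whose arrays did not overlap between the conditions, as was true of 37.7% of all probes (13.9% with RA above and 23.8% with RA below). The median fitted change of the 9 members was 4.29 on the log2 scale, beside a median of -0.28 over all probes. That median is the value of *Hoxc8*, which no untreated array detected, and it was 2.15 with *Hoxc5* and *Hoxc8*, detected after RA alone, set at their bound, and 1.35 with normexp at the same scaling. Normexp as run here adds an offset to every spot, which weighs most on faint ones.

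On every array 56.7% to 62.7% of the non-control spots were well above background, the flag by which the scanner software marks a spot as detected, and no spot was saturated. *Rarb*, the RA receptor gene that RA itself induces, rose by 7.21 (SE 0.40, adjusted p in limma 5.31e-06), and all 9 RA response genes that were listed were called higher. All 10 ES cell markers, *Pou5f1*, *Nanog* and *Sox2* among them, were called lower but stayed well above background on the 4 RA arrays. All 6 primitive endoderm markers were called higher, as were 5 of 6 feeder fibroblast markers (*Thy1* was not), and the summed signal of the latter list went from between 1.05 and 1.83 to between 30.4 and 48.7 times the 75th-percentile spot. Of the 5 neural markers on the array *Nes* was called higher and *Tubb3* lower, and of the 6 mesoderm markers *Meox1* was called higher and *Mesp1* lower. The part of such cell types in the HoxC values was not tested, and in bulk RNA more cells with a transcript and more transcript per cell cannot be told apart. The 4 arrays of 1 slide and the 4 of the other held 2 arrays of each condition.

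The probes of *Hoxc8*, *Hoxc11* and *Hoxc12* read coding sequence and are shown here: *Hoxc8* is a member that was detected only after RA, and the other two are the members that no array detected. Their positions on mm9, which is the build in the deposited scanner files, are chr15:102821238-102821297, chr15:102787022-102787081 and chr15:102768889-102768948. The capitals mark the longest run that the *Hoxc11* and *Hoxc12* probes share, 11 bases in a part of the homeobox, which 4 of all 55681 probes hold. The *Hoxc12* probe ends in the stop codon.
Hoxc8: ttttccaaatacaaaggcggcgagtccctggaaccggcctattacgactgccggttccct
Hoxc11: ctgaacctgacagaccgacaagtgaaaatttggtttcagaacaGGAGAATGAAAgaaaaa
Hoxc12: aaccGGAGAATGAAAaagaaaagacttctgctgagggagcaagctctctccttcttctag

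Levels are given as log2 of the processed intensity minus the 75th percentile of the array, so that 0 is the brightness of the spot at that percentile and each unit is a doubling. Brightness depends on the probe, so levels are compared between arrays and never between genes. The members are taken in their order along the chromosome, from *Hoxc4* to *Hoxc13*, over 108.155 kb between the first bases of the outermost probes.

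*Hoxc4*, the most anterior gene of this cluster, was detected on 3 of 4 untreated arrays and on all 4 RA arrays. The untreated arrays read -4.51, -3.73, -5.11 and -5.26 for replicates 1 to 4, and the RA arrays 0.38, -0.65, 2.81 and 2.40. The lowest RA array stood well above the highest untreated one, but RA replicates 1 and 2 lay below replicates 3 and 4. The rise was 5.89 (SE 0.75, 95% interval 4.18 to 7.59, adjusted p in limma 0.000328), which is 59.1-fold. Within the slides it was 6.20 and 5.57. The probe lies at chr15:102867213-102867272 (mm9).

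The start of *Hoxc4* is the only one among the 9 members that the promoter table used here holds. The 250 bases before it, from RefSeq on GRCm38.p6 at chr15:103034145-103034394 on the plus strand, lie inside the span RefSeq gives to the gene, so they precede a transcript start within that span. The capitals mark the 2 matches to the hexamers AGGTCA and AGTTCA, both on the minus strand. Each is a half-site, a part of a site that RA receptors bind. The 2 matches do not lie side by side, and binding was not tested.
Hoxc4 upstream: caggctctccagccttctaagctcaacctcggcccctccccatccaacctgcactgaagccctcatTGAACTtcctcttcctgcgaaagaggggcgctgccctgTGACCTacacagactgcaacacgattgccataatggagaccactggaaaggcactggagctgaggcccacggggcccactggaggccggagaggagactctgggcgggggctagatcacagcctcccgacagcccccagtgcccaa
On either strand AGGTCA was held by 14% and AGTTCA by 11.8% of the 32851 promoter windows of the same length. The Hox-Pbx motif TGATNNAT, which had no match in this window, was held by 7.68% of all windows. The window is 62% G or C, against a median of 52.4%.

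*Hoxc5* and *Hoxc6* lie next, and their probes are separated by 5.48 kb. *Hoxc5* read -5.91, -5.92, -5.57 and -6.22 on the untreated arrays, none of them well above background, and -1.99, -2.84, 0.31 and 0.50 on the RA arrays. Since its untreated level is a bound, the rise was at least 21.1-fold in the processed intensity. The fitted change was 4.90 (SE 0.71, adjusted p in limma 0.000674). *Hoxc6* was detected on 2 of 4 untreated arrays, with -4.82, -5.84, -3.83 and -6.25, and reached -0.65, -1.58, 0.06 and -0.11. All RA arrays were again above all untreated arrays for both genes, with RA replicate 2 the lowest of its group. The rise of *Hoxc6* was 4.61 (SE 0.56, adjusted p in limma 0.000242). Within the slides the changes of *Hoxc6* were 3.94 and 5.29, and those of *Hoxc5* differed by less, from 4.80 on one slide to 4.996 on the other.

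*Hoxc8* and *Hoxc9* are the members of the middle of the cluster, with roles in the trunk. *Hoxc8* was detected on no untreated array, where it read -7.36, -7.79, -7.81 and -7.37, and on all RA arrays, with -3.63, -5.18, -2.14 and -2.20. The rise was at least 4.44-fold (adjusted p in limma 0.000646), with a fitted change of 4.29 (SE 0.62). *Hoxc9* read -5.61, -4.66, -5.35 and -6.78, with 2 of the 4 untreated arrays above background, and 0.53, -1.56, 1.63 and 1.66 after RA. Its rise of 6.16 (SE 0.74, adjusted p in limma 0.000226), or 71.8-fold, had the smallest p among the 9 members. Both genes were separated between the conditions on every array, and RA replicates 3 and 4 were again the 2 highest. Within the slides the changes were 4.67 and 3.92 for *Hoxc8* and 6.58 and 5.75 for *Hoxc9*.

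**Figure D1:**
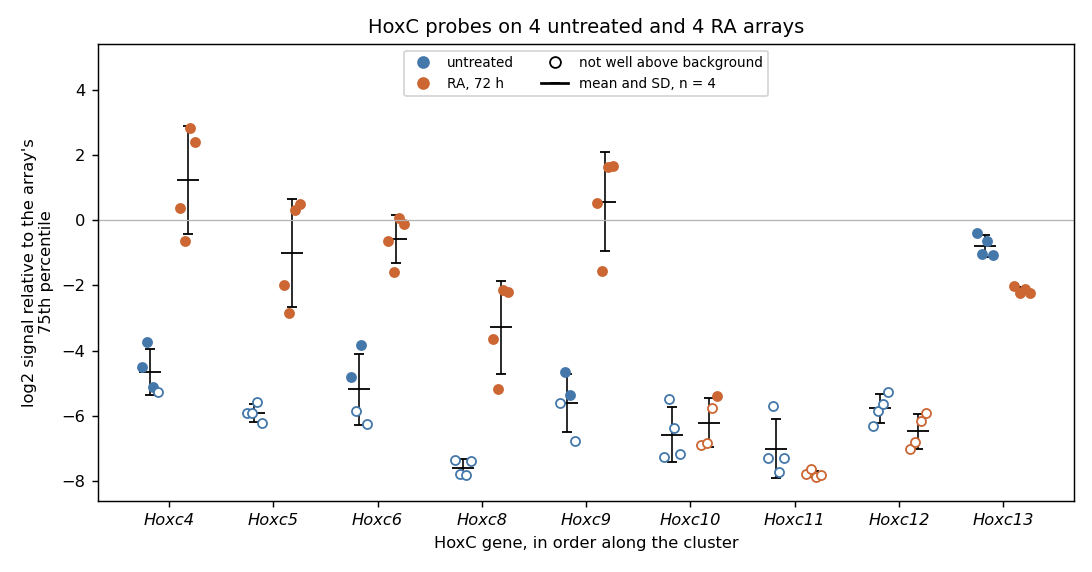
Each point is 1 array (4 untreated in blue, 4 RA in orange) and the vertical axis is the log2 signal relative to the 75th percentile of the array, with the genes in their order along the cluster. Open points were not well above background, and black marks give the mean and SD (n = 4). *Hoxc4* to *Hoxc9* separate upwards, *Hoxc13* separates downwards, and *Hoxc10* to *Hoxc12* overlap near the bottom of the scale.

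With normexp the changes shrank to 4.44 for *Hoxc4*, 2.56 for *Hoxc5*, 2.81 for *Hoxc6*, 1.35 for *Hoxc8* and 3.87 for *Hoxc9*, and all 5 were still called. The sizes of these changes thus depend on the background correction.

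Between *Hoxc9* and *Hoxc10* the pattern ended. *Hoxc10*, an early member of the posterior side with a role in the lumbar region and hindlimb, read -7.24, -5.47, -6.38 and -7.18 on the untreated arrays and -6.88, -6.82, -5.74 and -5.38 on the RA arrays. Only RA replicate 4 was well above background, and the conditions overlapped. The difference of 0.36 (SE 0.48, 95% interval -0.73 to 1.45) did not pass the test, with an adjusted p in limma of 0.551. The gap between the *Hoxc10* and *Hoxc9* probes is 12.818 kb, chr15:102801917-102814734 on mm9.

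RefSeq places the microRNA gene *Mir196a-2* in the interval between *Hoxc10* and *Hoxc9*, and *Mir615* inside *Hoxc5*. No probe on the array carries their names, so their levels were not measured, and the mature forms are shown because miR-196 lies where the genes called higher end and is known for targeting *Hox* transcripts. Capitals mark the seed, bases 2 to 8, and positions are on GRCm38.p6: chr15:102973365-102973386 for miR-196a-5p and chr15:103014969-103014990 for miR-615-3p, both on the plus strand.
mmu-miR-196a-5p: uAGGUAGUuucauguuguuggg
mmu-miR-615-3p: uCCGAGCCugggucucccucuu

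*Hoxc11* and *Hoxc12*, the next genes towards the posterior end, were not well above background on any of the 8 arrays, as was 29.9% of all probes. *Hoxc11* read -7.30, -5.70, -7.73 and -7.28 untreated and between -7.87 and -7.63 after RA. *Hoxc12* read -6.32, -5.86, -5.62 and -5.26 untreated and -7.03, -6.80, -6.16 and -5.90 after RA. Neither passed the test (adjusted p in limma 0.159 and 0.106), and in both the conditions overlapped. With the replicate number as a block *Hoxc12* was called lower (adjusted p 0.0194, change -0.71), but both of its levels are bounds and no fold is given. Their transcripts were thus not detectable at the sensitivity of these probes.

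*Hoxc13*, the most posterior gene, known for its role in hair and nails, was well above background on all 8 arrays, at -0.39, -1.05, -0.64 and -1.07 untreated and -2.01, -2.22, -2.10 and -2.23 after RA. The RA arrays lay below every untreated array and within 0.21 of each other. The fall of 1.35 on the log2 scale (SE 0.19, 95% interval of the change -1.77 to -0.93, adjusted p in limma 0.000494) was 2.55-fold, and it was -1.60 and -1.10 within the slides. Against the median change of all probes it was -1.07. It was thus the only member detected on all untreated arrays and the only one called lower.

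**Figure D2:**
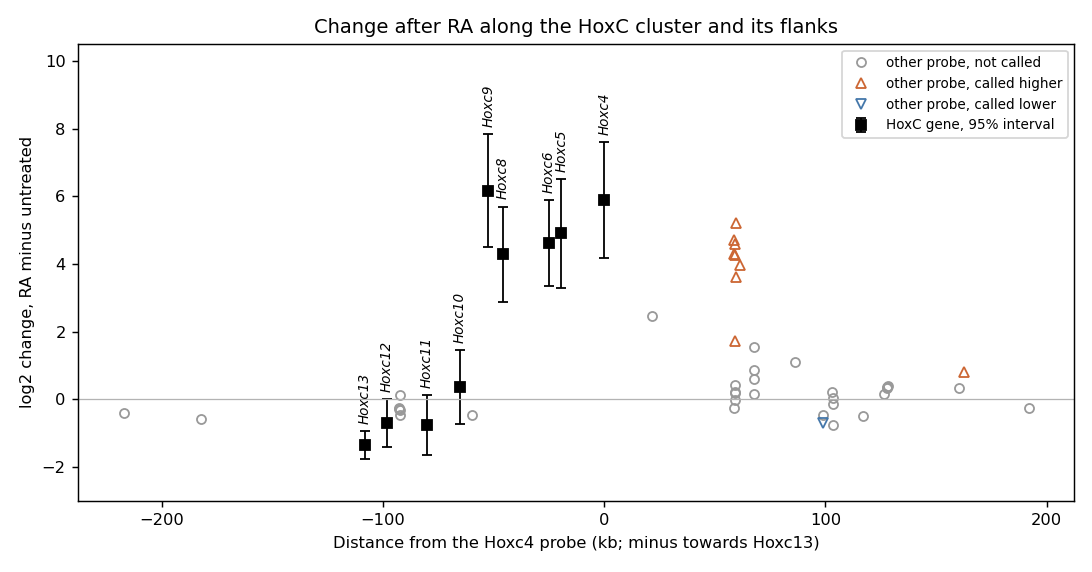
Horizontal axis, distance of each probe from the *Hoxc4* probe in kb, with minus towards *Hoxc13*, and vertical axis, log2 change after RA (4 RA minus 4 untreated arrays). Squares with 95% intervals are the 9 HoxC genes and open symbols are the 41 other probes inside or within 200 kb of the cluster. The 5 genes on the right, *Hoxc4* to *Hoxc9*, have fitted changes between 4.29 and 6.16, the 4 on the left between -1.35 and 0.36, and 8 probes near 60 kb to the right also rose.

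No order of size is given among the 5 genes that rose. Each of the 4 pairs of neighbours holds *Hoxc5* or *Hoxc8*, whose untreated levels are bounds, so that the rise of these genes can be larger or smaller than fitted and the difference within a pair has no settled size or direction.

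The 4 RA arrays were ordered alike by the 5 genes that rose. RA replicate 2 was the lowest in 5 of 5, and RA replicates 3 and 4 were the 2 highest in 5 of 5. On average over the 5 genes the arrays deviated from the RA mean by -0.46, -1.75, 1.15 and 1.06 on the log2 scale for replicates 1 to 4. Of the 4681 genes that were called higher and detected on all RA arrays, 41.9% had replicate 2 lowest and 29.4% had replicates 3 and 4 highest. The RA arrays of *Hoxc13* spanned 0.21 and those of *Hoxc4* 3.46.

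Among other genes RA replicate 2 was the lowest in 8 of 9 HoxB genes, 5 of 6 HoxA genes and 5 of 6 HoxD genes that rose, and in 4 of 9 RA response genes. RA replicates 3 and 4 were the 2 highest in 9 of 9 HoxB, 6 of 6 HoxA, 3 of 6 HoxD and 8 of 9 RA response genes. In the other lists that rose replicate 2 was the lowest in 3 of 7 TALE cofactor, 4 of 6 primitive endoderm and 2 of 5 feeder fibroblast genes, and replicates 3 and 4 were the 2 highest in 5 of 7, 2 of 6 and 0 of 5. Among the 10 ES cell markers RA replicate 2 was the highest in 9 and replicate 4 the lowest in 8, and their mean level was 1.14, 2.23, 0.71 and 0.25 on RA replicates 1 to 4, against 5.36 to 5.77 on the untreated arrays. The part of these differences among the RA cultures in the HoxC values was not tested. RA replicates 2 and 3 were on one slide and replicates 1 and 4 on the other. The median of the spots around those of the 6 called members differed by -0.17 to 0.30 from the other arrays of the group. All 5 genes were still called without any 1 of the 8 arrays. Without RA replicate 2 the fitted changes moved up to 6.51 for *Hoxc4*, 5.51 for *Hoxc5*, 4.92 for *Hoxc8* and 6.87 for *Hoxc9*, each over 1.5 times the fold with all arrays.

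**Figure D3:**
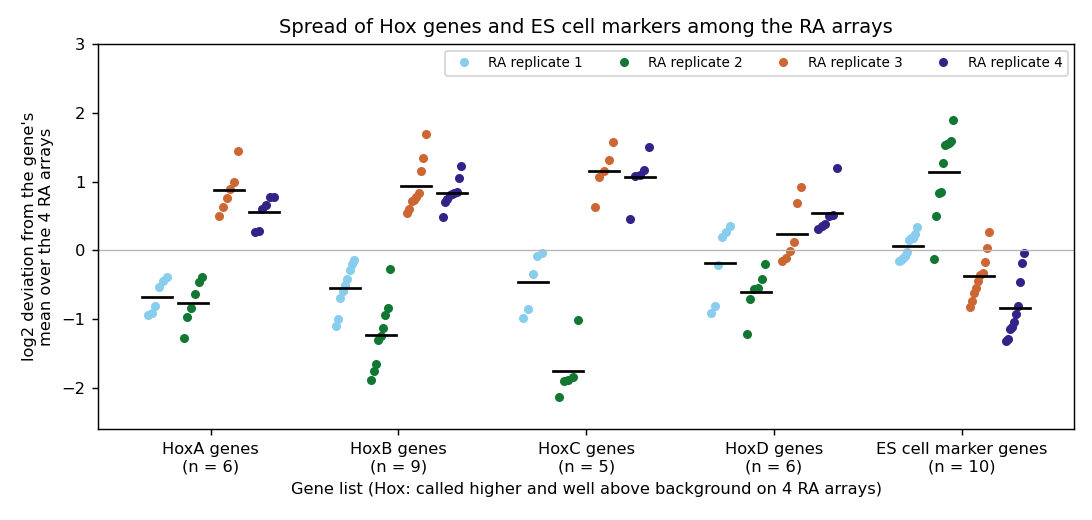
Each point is 1 gene on 1 RA array, as its log2 deviation from the mean of that gene over the 4 RA arrays, and lines are means over the genes of a list. The 5 HoxC genes that rose lie lowest on RA replicate 2 (mean -1.75) and highest on replicates 3 and 4 (1.15 and 1.06), while 9 of the 10 ES cell markers are highest on replicate 2.

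Set beside the other clusters, the split of HoxC by paralog group was shared in part. By gene name, 1 probe each, 13.9% of all names were called higher and 22.1% lower. The cut between numbers 9 and 10 used here is where the HoxC calls end, so the HoxC counts follow from it. Of the genes numbered 1 to 9, all 5 of HoxC, all 9 of HoxB, all 5 of HoxD and 6 of 8 of HoxA were called higher and detected after RA. Of those numbered 10 to 13, 0 of 4 HoxC genes, 0 of 1 HoxB genes, 0 of 3 HoxA genes and 1 of 4 HoxD genes, *Hoxd13*, were. *Hoxa11* was called lower while below background on all arrays. With genes detected after RA alone set at their bound, the median change was 2.15 in HoxC, 4.65 in HoxB, 1.53 in HoxD and 1.95 in HoxA. As fitted it was 4.29, 5.71, 3.50 and 1.95, and with normexp it was 1.35, 2.88, 0.88 and 1.69, in the same order of clusters. The place of HoxA among them thus turns with the treatment of undetected levels and with the background correction. These clusters were read on the same arrays, and the differences between their medians were not tested.

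Single paralogs of the HoxC genes did not always change alike. In group 4, *Hoxc4* rose by 5.89, *Hoxb4* by 6.42, *Hoxd4* by 4.74 and *Hoxa4* by 3.34. *Hoxd4* was detected on 1 and *Hoxa4* on 2 of the 4 untreated arrays, so their sizes rest in part on levels below background. In group 9, *Hoxc9* rose by 6.16 and *Hoxb9* by 2.76, *Hoxd9*, undetected in untreated cells, rose at least 6.41-fold, while the change of *Hoxa9* was 0.27 and not called. In group 6, *Hoxc6* rose by 4.61 and *Hoxb6* at least 24.3-fold, while *Hoxa6* changed by -0.70 and was not called. The direction for *Hoxa6* rests on untreated replicate 2, at -1.53. The other untreated arrays read -4.85, -5.01 and -5.18, and the mean of the RA arrays was -4.84. In group 13, the fall of *Hoxc13* stood beside a called rise of *Hoxd13* by 1.25 (adjusted p in limma 0.0205), an uncalled change of *Hoxb13* by -0.23, and *Hoxa13*, called higher while below background on all arrays. The call of *Hoxd13* was lost without untreated replicate 4 (adjusted p 0.0558), RA replicate 1 (0.0563) or RA replicate 4 (0.0559), and that of *Hoxa13* with normexp, with normexp and quantile scaling, with the deposited log2 values and under a filter on dim probes. The genes named for the other clusters were picked by fitted change and are given in no order of size, since many of their untreated levels are bounds. They were *Hoxa5* (at least 30.8-fold), *Hoxa2* (at least 49.6-fold) and *Hoxa3* (6.96 on the log2 scale) in HoxA. In HoxB they were *Hoxb2* (7.63), *Hoxb5* (at least 29.8-fold) and *Hoxb3* (at least 20.4-fold), and in HoxD *Hoxd8* (at least 22.5-fold), *Hoxd4* (4.74) and *Hoxd1* (at least 16.3-fold).

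**Figure D4:**
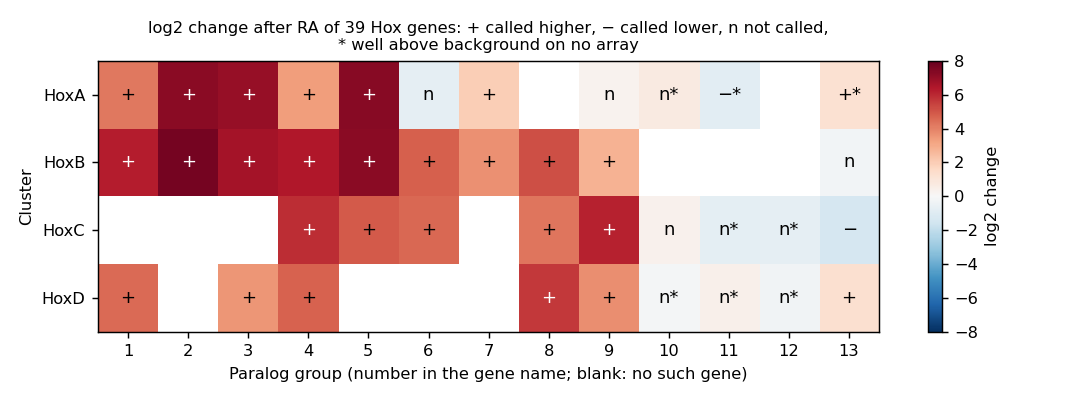
Rows are the 4 *Hox* clusters, columns the paralog groups 1 to 13, and colour the fitted log2 change after RA, with + called higher, − called lower, n not called and * well above background on no array. HoxC is called higher in its 5 genes up to group 9 and lower in group 13, where HoxD is called higher and HoxA is called higher while below background.

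The TALE homeodomain proteins bind DNA together with Hox proteins, and 7 of their 9 genes were called higher and 0 lower. *Meis1* rose by 5.51, *Meis2* by 4.80 and *Pknox2* by 2.54. Of the 3 Cdx genes, which encode caudal factors that activate posterior *Hox* genes, *Cdx2* rose by 3.02, *Cdx1* changed by 0.19 without being called, and *Cdx4* was called lower while below background on all arrays. *Cdx2* was read highest on RA replicate 2, at 0.06, and lowest on replicate 4, at -1.41.

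Inside the cluster and within 200 kb of it lay 41 probes for other transcripts, of which 9 were called higher and 1 lower. Of the 6 inside the cluster none was called, at an adjusted p in limma under 0.05 and 1.5-fold. They included 5 probes named HOTAIR, after the long non-coding RNA known from the same place of the human cluster, between *Hoxc11* and *Hoxc12*. Only 1 of these was detected, at -3.14, -3.13, -3.04 and -3.14 untreated and -3.53, -3.43, -3.85 and -3.54 after RA, a change of -0.47 with an adjusted p of 0.0263 that missed the fold threshold. *Gm4200*, between *Hoxc10* and *Hoxc9*, changed by -0.48 and was not called. The 2 probes beyond *Hoxc13* were not detected.

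Beyond *Hoxc4*, 8 probes of 2 transcripts named by position, both with names ending in R, were called higher. For 6 of them, which no untreated array detected, the rise was at least 2.62-fold to at least 9.16-fold. The others rose by 1.71 (adjusted p in limma 0.04997) and 4.72 on the log2 scale, and in both the conditions overlapped. The one at 4.72 was detected on 1 of 4 untreated arrays. The 8 probes lie 58.8 to 61.5 kb from the *Hoxc4* probe. None of the 5 probes of the paired name ending in F, with the same interval in the name, was called. Their changes ran from -0.24 to 0.42. These probes lie 58.8 to 59.1 kb from the *Hoxc4* probe. Most were detected on no array, among them the one at -0.24. On all 8 probes of the R names RA replicate 2 was the lowest and replicates 3 and 4 the 2 highest RA arrays, the order seen for the 5 HoxC genes. The probe nearest to *Hoxc4* on this side, which has no gene name, read -5.81, -7.73, -3.45 and -3.54 on RA replicates 1 to 4 and was detected on 2 of them, with an adjusted p in limma of 0.0514 that missed the threshold. *D930007P13Rik* read -5.25, -6.69, -4.54 and -4.51 on these arrays, again with replicate 2 lowest and replicates 3 and 4 highest, and was not called (adjusted p 0.135). *Smug1*, a DNA repair glycosylase, was not called at either probe, and a transcript named by position, read at chr15:102966237-102966296 (mm9), was called lower (change -0.71). *Cbx5*, which encodes the heterochromatin protein HP1 alpha, was called higher at 1 probe (change 0.81) and not at its brighter one (0.32).

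*Hoxc9* was taken as the member with the smallest p, and the genes whose centred log2 profile over the 8 arrays came nearest to it were sought among 14735 genes detected on all RA arrays. Likeness was the root mean square difference, in log2 units. The nearest outside the *Hox* clusters were *Rab27b*, a small GTPase of vesicle transport (0.62), *Hand2*, a bHLH factor of heart and limb (0.73), *Lpar3*, a lysophosphatidic acid receptor (0.75), *Sod3*, the extracellular superoxide dismutase (0.77), and *Tshz1*, a teashirt zinc finger factor (0.78). Among *Hox* genes *Hoxc4* came nearest (0.50), followed by *Hoxb4* (0.67). *Rab27b*, *Hand2* and *Sod3* were detected on no untreated array, so their likeness rests in part on levels below background. Shared order of the RA arrays follows from the way these genes were chosen.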

How the data were processed

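The authors deposited the output of the scanner software (Agilent Feature Extraction, version 10.7.3.1) for 8 one-colour arrays, whose processed intensity is background-corrected by the software but not scaled between arrays. The authors also deposited a table of processed log2 values for the same spots, used as an alternative. The normalization behind that table is not given in the sources used here, and each of its columns has a median of 6.76. Here (R 4.3.3) log2 of the processed intensity minus the 75th percentile of each array was used. Control spots (3671) and outlier spots (124 to 145 per array) were left out, and spots of a probe were averaged. A gene is its probe with the highest mean. Conditions were compared with limma 3.58.1 (lmFit, eBayes), with Benjamini-Hochberg adjustment over 55681 probes, and called at an adjusted p under 0.05 and over 1.5-fold, the study's thresholds. Where a condition was detected on no array, the fold is a bound against the lowest signal well above background on each array. The probe's own signal was taken where it was higher. Such a bound holds for the processed intensity alone and not for other background corrections. A planned test between neighbouring genes is left out because each pair holds a gene with such a bound.

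Groups and replicate numbers came from the sample labels. Whether equal numbers mean paired samples is not stated in the labels. Deviations of same-numbered arrays correlated at 0.186, 0.19, 0.103 and 0.151 over 27474 probes. The highest correlation of different numbers was 0.142, above the lowest of these, so the pairing is not settled. The main comparison did not use it. On simulated data 165 of 200 probes changed by 2 on the log2 scale were recovered, with 12 false calls. Alternatives were quantile scaling, normexp (offset 50), both, the deposited log2 table, a filter on dim probes, slide or replicate as a block, other thresholds, and leaving out each array. The text names all 9 members, the genes beside the cluster that were called, up to 3 genes of each other list, the 5 genes nearest to the lead member, and *Rarb* with *Cyp26a1* (change 6.09). Further *Hox* paralogs of the members, marker genes, *Cdx* genes and probes beside the cluster that the text names were chosen after their values were seen. The members and the gene lists were chosen with earlier results of these data known. The number of arrays limits the precision.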

Additional observations from a re-analysis of the deposited data

How the results depend on the processing

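Over the alternatives tried, 5 HoxC genes were called higher under each, and none reversed a called change of a HoxC gene. With the replicate block 2 HoxC genes were called lower in place of 1, *Hoxc12* (-0.71, adjusted p 0.0194) beside *Hoxc13*, and the block changed no other call of a HoxC gene. *Hoxc10*, *Hoxc11* and *Hoxc12* stayed uncalled otherwise, and the filter on dim probes gave them no value. Quantile scaling moved the median change of all probes from -0.28 to -0.003, and the calls from 7196 higher and 12044 lower to 8152 and 8704. With normexp and quantile scaling 6603 probes were called lower, and with the deposited log2 values 6583. The count of HoxA genes called lower was 0 in place of 1 under quantile scaling, normexp, both, the deposited log2 values and the dim filter, and that of Cdx genes 0 in place of 1 under the last 4 of these. Beside the cluster 0 probes in place of 1 were called lower with normexp and quantile scaling and with the deposited log2 values. Leaving out 1 array gave 1 to 2 there, with 2 without untreated replicate 3. Of the probes beside or inside the cluster 9 were called higher. Over the alternatives this count ran from 6 under the dim filter to 11 without RA replicate 2. The count of HoxA genes called higher was 6 in place of 7 with normexp, both, the deposited values and the dim filter, without *Hoxa13*, and 8 with quantile scaling, the replicate block and without untreated replicate 2, with *Hoxa10*, which no array detected. With normexp and quantile scaling 6305 probes were called higher, and with the deposited values 6275. The differences between neighbouring HoxC genes, which had been planned and were computed, are not reported under any setting, because each pair holds a gene not detected in untreated cells. The cause of these shifts was not tested. Members below background give bounds, which limits what can be said of *Hoxc10*, *Hoxc11* and *Hoxc12*.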
